A study of Homo sapiens with 6 samples.

Results

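ABCB1 and 9 genes that lie beside it at chromosome 7q21 were examined in docetaxel-resistant prostate cancer cells. The 10 genes were ABCB1, ABCB4, RUNDC3B, SLC25A40, DBF4, ADAM22, CROT, TMEM243, DMTF1 and KIAA1324L, out of 28008 genes in the deposited count table. They were chosen by position, because this segment is often co-amplified in taxane-resistant cells, and with their change between the groups already known. Their levels and changes are therefore given as a description with no p-values, and the number past the threshold of the fit over all genes is given only beside that of all genes. All 10 were in the table, and all 10 passed the filter on low counts.

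DU-145 is a prostate cancer cell line, and DU-145-DR cells were derived from it by continuous exposure to docetaxel, a taxane that stabilises microtubules. The study's methods describe DU-145-DR/tet-MUC1shRNA cells, in which doxycycline (DOX) turns on a short hairpin RNA against MUC1, a transmembrane mucin. RNA-Seq was carried out on triplicate cultures that received DMSO alone (DOX-negative, n = 3) or 500 ng/ml DOX for 7 days (DOX-positive, n = 3). The comparison asked what silencing MUC1 changes in resistant cells. The sample titles name the resistant line for both groups, while the hairpin appears in the treatment label of the DOX-positive ones alone. No library of DU-145 parental cells and no control-hairpin library was analysed here, so effects of the hairpin and of DOX itself cannot be told apart. The sources used here do not state whether DU-145-DR is a clone or a pool.

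ABCB1 encodes P-glycoprotein, an ATP-driven efflux pump of the plasma membrane that exports docetaxel and many other hydrophobic drugs. Raised ABCB1 expression is a well-known route to taxane resistance in cultured cells, and it can come from amplification of the 7q21 segment, from rearrangements that place ABCB1 under another promoter, or from changed transcription. Copy number and rearrangements were not measured in these libraries, and their part in the levels below was not tested.

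The genes span chr7:86876906-88202889 (GRCh38, GENCODE 29), which is 1.326 Mb. ABCB1 lies at chr7:87503633-87713323 on the minus strand. ABCB4, the sister transporter that moves phosphatidylcholine into bile, follows on the same strand at chr7:87401697-87480435. These genes are paralogs, and the sequence shown next is the longest run of their coding exons that is identical in both, so a read inside it cannot be assigned to one of them. The run has 122 bases and lies in exons 27 and 28 of 28 in each gene. In ABCB1 it covers chr7:87505897-87505908 and chr7:87504340-87504449, and in ABCB4 chr7:87403135-87403146 and chr7:87402193-87402302, all minus strand. Capitals are not used, since every base is shared.
ABCB1 and ABCB4: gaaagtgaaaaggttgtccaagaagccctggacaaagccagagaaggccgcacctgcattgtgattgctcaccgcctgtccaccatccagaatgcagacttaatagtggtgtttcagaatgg
Of all 50-base windows in their exons, 119 were shared, out of 5892 in ABCB1 and 7912 in ABCB4. Nearly all of each transcript can therefore tell the genes apart, but the low ABCB4 counts are uncertain to the extent that shared reads were assigned to it.

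ABCB1 has starts at 2 places in RefSeq (GRCh38.p14), at position 87713295 and, downstream of it, at position 87600884 of chromosome 7. The downstream start has an inverted CCAAT box, a motif bound by the NF-Y complex, and its surroundings are shown because NF-Y subunits are among the regulators described further on. The site lies at chr7:87600947-87600975 on the minus strand, 79 bases before the downstream start, within an annotated ABCB1 exon. Capitals mark the CCAAT box as read from the opposite strand.
ABCB1 downstream start: gtggtgaggctgATTGGctgggcaggaac
In the 250 bases before each start, 4 motifs were searched on both strands: the CCAAT box (CCAAT), the GC box (GGGCGG), the E-box (CACGTG) and the TATA box (TATAAA). The downstream ABCB1 window held 2 CCAAT boxes and the upstream window none, and neither held any of the other 3 motifs. Windows were listed for 9 of the 10 genes, without ABCB4. Each of the 8 neighbours with a window held at least 1 GC box in 1 or more of its windows, while a second KIAA1324L window held none. Windows of TMEM243 held up to 3 CCAAT boxes, those of RUNDC3B, ADAM22 and CROT 1 each, and those of the other 4 neighbours none. Over all 35116 promoter windows of the same length, 32.0% held a CCAAT box, 42.6% a GC box, 6.34% an E-box and 10.7% a TATA box. These matches describe letters in the windows and say nothing of binding.

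The libraries held 15092691 to 23243713 counts, and 3 counts corresponded to 0.129 to 0.199 CPM, the counts scaled to each library's total and its trimmed-mean factor. MUC1 itself checked the labels: without DOX it had 387, 484 and 396 counts, and with DOX 75, 74 and 66. All 5 epithelial markers were above 3 counts, and their summed CPM ranged from 758 to 838 in DOX-negative and from 1440 to 1520 in DOX-positive cells. Of the prostate luminal markers, KLK3 and HOXB13 were at 0 in all 6 libraries. Sums were 4.19 to 4.68 and 4.01 to 5.12 CPM for 4 fibroblast markers, nearly all from COL1A1. DCN and LUM had at most 1 count in any library. Sums were 0.22 to 0.398 and 0.313 to 0.959 CPM for 3 endothelial markers. For 3 leukocyte markers they were 91.4 to 106 and 158 to 179 CPM, nearly all from CD68, with CD3E at 0. The rise of the epithelial and CD68 levels went with DOX, and its part in the results below was not tested. In bulk libraries fewer cells of a type and less RNA per cell cannot be told apart. A set of 5 short noncoding RNAs took 34.4% of the deposited TPM, the authors' length-scaled level, in DOX-negative replicate 2 and 51.2% to 64.4% in the other libraries, which shifts every other gene's TPM.

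ABCB1 was one of the most abundant transcripts of the resistant cells, and its neighbours were not. Without DOX the libraries held 46188, 54085 and 50428 ABCB1 counts, and with DOX 79203, 65238 and 53339. ABCB1 alone thus took 0.250% to 0.284% of all counts without DOX and 0.337% to 0.353% with DOX. By deposited TPM it ranked between 78 and 93 of 25546 genes in the DOX-negative libraries and between 57 and 63 in the DOX-positive libraries. Its TPM was 694, 1029 and 504 without DOX and 660, 737 and 780 with DOX, and the highest of these was in the library with the lowest share of short noncoding RNAs. Among 12375 protein-coding genes that passed the filter, ABCB1 was at rank 73 by mean DOX-negative TPM. The 9 neighbours had a median of 15.7 TPM in DOX-negative cells, close to the median of 11.7 TPM over those 12375 genes.

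In DOX-negative cells ABCB1 (742 ± 266 TPM, SD, n = 3) was followed by DBF4 (36.3 ± 7.62 TPM) and CROT (35.6 ± 7.81 TPM). DBF4 and CROT differed by 1.02-fold on average, well under the spread of either gene between libraries. DMTF1 (27.0 ± 8.23 TPM), SLC25A40 (22.7 ± 6.58 TPM) and TMEM243 (15.7 ± 3.37 TPM) came next. KIAA1324L (5.46 ± 1.89 TPM) and ADAM22 (2.57 ± 0.788 TPM) were lower still. ABCB4 (1.16 ± 0.596 TPM) and RUNDC3B (1.03 ± 0.310 TPM) were at the bottom and could not be ordered, since ABCB4 was the higher in 1 of 3 libraries. With DOX, CROT stood above DBF4 in 3 of 3 libraries, and SLC25A40 stood above TMEM243 in only 2 of 3.

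Within each library the TPM ratio of ABCB1 to a neighbour does not depend on the share of short noncoding RNAs. Over the 6 libraries ABCB1 was 17.7- to 32.0-fold above DBF4 and 18.1- to 25.8-fold above CROT. It was 25.1- to 36.9-fold above DMTF1, 30.8- to 62.2-fold above SLC25A40 and 39.6- to 77.0-fold above TMEM243. The ratio reached 126 to 179 for KIAA1324L and 272 to 431 for ADAM22. The genes that lie directly on either side of ABCB1 showed the greatest distance, with ratios of 562 to 966 for ABCB4 and 670 to 1310 for RUNDC3B. ABCB1 held 85.5% to 87.6% of the counts of all 10 genes without DOX and 89.0% to 90.1% with DOX.

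**Figure D1:**
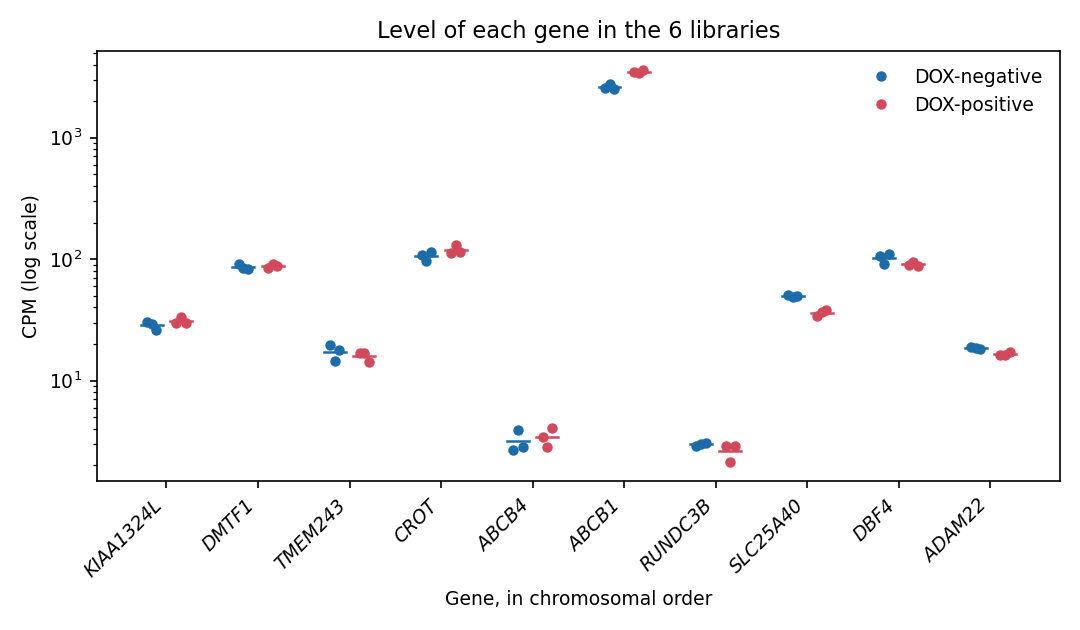
CPM on a log axis for the 10 genes in chromosomal order, with 1 point for each of the 3 DOX-negative (blue) and 3 DOX-positive (red) libraries and a line at each group mean. ABCB1 sits between 2509 and 3586 CPM and every neighbour below 131 CPM, with ABCB4 and RUNDC3B between 2.14 and 4.10 CPM.

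**Figure D2:**
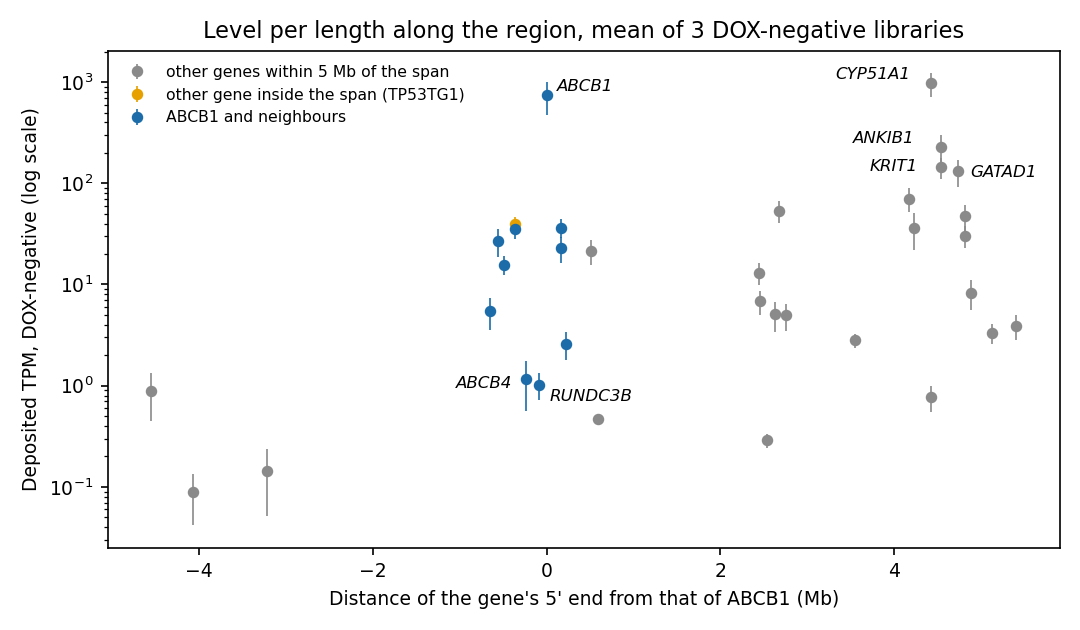
Deposited TPM on a log axis, mean and SD of 3 DOX-negative libraries, against the distance in Mb between the 5' end of each gene and that of ABCB1, for the 35 genes of the region that passed the filter. Besides ABCB1, a second group of high levels stands 4.42 to 4.73 Mb away, from CYP51A1 (970 TPM) to GATAD1 (132 TPM).

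With DOX, ABCB1 was higher and SLC25A40 lower, and the other 8 genes stayed within 0.20 of 0 on the log2 scale. Of the 10 genes, 2 were past the threshold of edgeR's quasi-likelihood test (adjusted p under 0.05 over all genes), 1 in each direction. Among all 14292 genes tested, 26.7% were past it, 13.0% higher and 13.7% lower, and since the genes were chosen with this contrast known nothing is read from their count. The count was 3, with DBF4 added, under total-count scaling or without DOX-negative replicate 2, and 0 on the deposited TPM scale. The median log2 fold change was -0.04 over the 10 genes and -0.00336 over all genes tested. Groups did not overlap in CPM for 4 of the 10 genes, against 39.8% of all genes tested.

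The efflux pump gene ABCB1 had 2542, 2766 and 2509 CPM without DOX and 3451, 3408 and 3586 CPM with DOX. Every DOX-positive library was above every DOX-negative library. The means were 2606 ± 140 and 3482 ± 92.9 CPM (SD, n = 3), a log2 fold change of 0.42 ± 0.07 (SE), or 1.34-fold. On the deposited TPM scale, where the median of all genes was shifted by -0.32, the ABCB1 difference was 0.03 on the log2(TPM + 1) scale, which is 0.35 above that shift.
ABCB4, by contrast, had only 49, 77 and 57 counts without DOX and 79, 54 and 61 with DOX. Its CPM were 2.70, 3.94 and 2.84 against 3.44, 2.82 and 4.10, so the groups overlapped. Its log2 fold change was 0.12 ± 0.23 (SE).

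SLC25A40, a carrier of the inner mitochondrial membrane that imports glutathione, went the other way from ABCB1. Its CPM were 50.9, 48.7 and 49.95 without DOX and 34.2, 36.6 and 38.2 with DOX. The groups did not overlap, and the DOX-positive level was 72.7% of the DOX-negative level, a log2 fold change of -0.46 ± 0.08 (SE).
CROT, the peroxisomal carnitine octanoyltransferase that hands shortened fatty acids to mitochondria, had 108, 96.1 and 114 CPM without DOX. With DOX it had 112, 130 and 114 CPM, and the groups overlapped. The log2 fold change of CROT was 0.17 ± 0.08 (SE). It dropped to 0.09 when DOX-positive replicate 2 was left out and to 0.10 when DOX-negative replicate 2 was, and was -0.22 on the log2(TPM + 1) scale, which is 0.10 above the shift of that scale.

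DBF4 encodes the regulatory subunit of the CDC7 kinase, which fires replication origins. It had 106, 91.6 and 111 CPM without DOX and 89.5, 94.1 and 87.7 CPM with DOX, and DOX-negative replicate 2 lay within the DOX-positive range. Its log2 fold change was -0.18 ± 0.08 (SE).
DBF4 and SLC25A40 start head to head on opposite strands, and their annotated exons overlap by 142 bases. The library kit keeps strand, but whether counting used it is not given in the sources used here, so reads in the overlap could have gone to either gene. The same holds for DMTF1 and TMEM243, whose exons overlap by 178 bases on opposite strands.

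DMTF1, a cyclin D-binding transcription factor that activates the ARF tumour suppressor, had 82.6 to 90.8 CPM without DOX and 83.9 to 90.5 CPM with DOX. These ranges nearly coincide, and the log2 fold change was 0.02 ± 0.07 (SE). TMEM243, a small membrane protein, had 19.5, 14.4 and 17.8 CPM against 17.0, 16.7 and 14.1 CPM, with overlapping groups and a log2 fold change of -0.11 ± 0.12 (SE). KIAA1324L, also named ELAPOR2, had 26.2 to 30.1 CPM without DOX and 29.8 to 33.2 CPM with DOX. Its log2 fold change was 0.12 ± 0.09 (SE).

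ADAM22, a catalytically inactive member of the ADAM family known as a neuronal receptor for LGI1, had 19.0, 18.4 and 18.2 CPM without DOX and 16.3, 16.4 and 17.3 CPM with DOX. The groups did not overlap, and the log2 fold change was -0.16 ± 0.10 (SE). RUNDC3B, a RUN domain protein transcribed from the other strand through the upstream part of ABCB1, had 2.92, 3.02 and 3.08 CPM without DOX. With DOX it had 2.88, 2.14 and 2.89 CPM, and 2 of these 3 values were just under the lowest DOX-negative one. Its log2 fold change was -0.19 ± 0.23 (SE). The gene bodies of RUNDC3B and ABCB1 overlap by 85776 bases, but their exons do not.

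**Figure D3:**
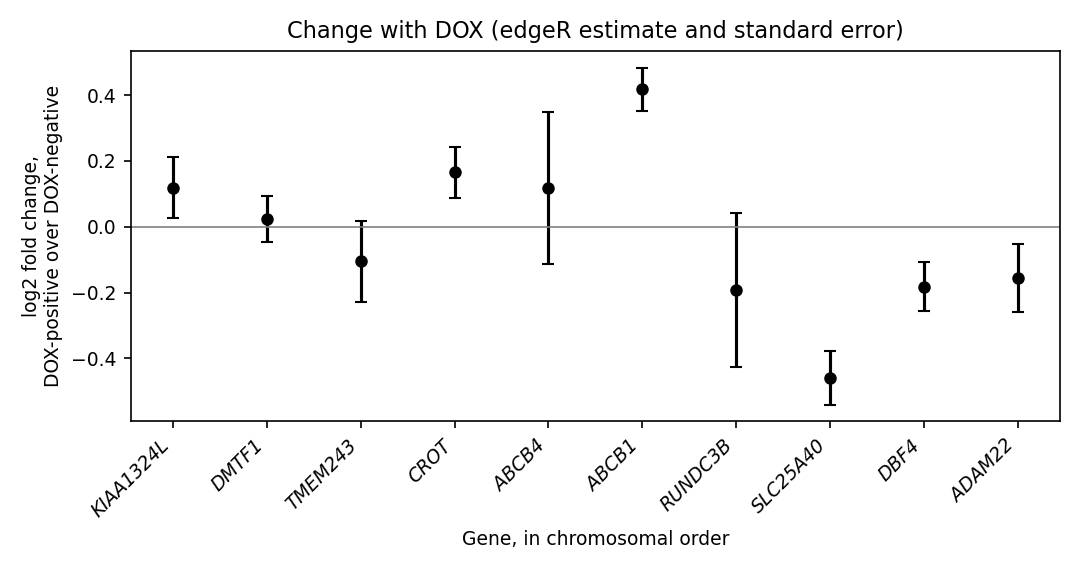
Log2 fold change of DOX-positive over DOX-negative cells, with its standard error from edgeR, for the 10 genes in chromosomal order. ABCB1 stands at 0.42 and SLC25A40 at -0.46, and the 8 others lie between -0.19 and 0.17.

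Over the 6 libraries, the genes whose pattern was most like that of ABCB1 lay outside the region. Likeness was the root mean square difference between log2 CPM profiles, each centred on its own mean, over 12362 genes. Nearly all of these lie outside the region, so the place of the closest genes is no result about the neighbours. The profiles also include the change with DOX, which was known when the genes were chosen. IMPDH2, which makes guanine nucleotide precursors, was the closest (0.0212), followed by IPP (0.0225), ANKEF1 (0.0270), ZNHIT6 (0.0275) and PODXL2 (0.0304). Among the neighbours KIAA1324L was the closest at rank 2790 (0.176) and SLC25A40 the farthest at rank 11272 (0.442).

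One further gene of the table lies inside the span, the noncoding TP53TG1, which starts 165 bases from CROT on the opposite strand. It had 13.1 ± 1.54 CPM without DOX and 13.6 ± 0.478 CPM with DOX, and did not pass the test (log2 fold change 0.06 ± 0.12, SE, edgeR adjusted p = 0.774).

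Of 38 genes within 5 Mb of the span, 24 passed the filter. With DOX 6 of them rose and 4 fell, where 26.7% of all genes tested changed, and the median log2 fold change was 0.04. CDK6, the G1 kinase, rose from 29.8 ± 3.09 to 54.7 ± 2.17 CPM (log2 fold change 0.88 ± 0.09, SE, edgeR adjusted p = 1.509e-07). STEAP4, a metalloreductase, rose from a level of 1.60 ± 0.331 CPM (0.85 ± 0.27, SE, edgeR adjusted p = 0.0201), a call that was lost when any of 3 libraries was left out: replicate 1 (0.85) or 2 (0.71) of the DOX-negative group, or replicate 2 (0.75) of the DOX-positive group. SAMD9, an antiviral factor, fell by 0.68 on the log2 scale (edgeR adjusted p = 1.894e-04), and the kinase gene CDK14 fell by 0.63 (edgeR adjusted p = 1.572e-04). CLDN12, a claudin, rose by 0.37 (edgeR adjusted p = 4.753e-04), which became -0.02 on the log2(TPM + 1) scale.

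CYP51A1, the lanosterol demethylase of cholesterol synthesis, was both among the genes that rose and the most abundant gene of the flanks. It went from 2253 ± 110 to 2980 ± 51.7 CPM (log2 fold change 0.40 ± 0.06, SE, edgeR adjusted p = 6.962e-05). Its DOX-negative level of 970 ± 250 TPM was above that of ABCB1, in 3 of 3 libraries. ANKIB1 (228 ± 70.2 TPM) and KRIT1 (145 ± 33.7 TPM) came next among the flank genes, and neither passed the test (edgeR adjusted p = 0.0917 and 0.279). ANKIB1 fell by 0.14 on the log2 scale in that fit, and passed with DESeq2 (adjusted p = 0.0348) and with total-count scaling (edgeR adjusted p = 0.0297). SRI, the sorcin gene just beyond ADAM22, was picked out after its values were seen. SRI had 35.2 ± 1.73 CPM without DOX and 40.0 ± 1.76 CPM with DOX (edgeR adjusted p = 0.108), and its 21.6 ± 6.01 TPM lay within the range of the ABCB1 neighbours.

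Of 42 genes listed as regulators of ABCB1 transcription, 37 were tested, 8 rose and 7 fell, beside 13.0% higher and 13.7% lower among all genes tested. The median log2 fold change of the list was -0.00209. DNMT3A, a de novo DNA methyltransferase, fell from 14.4 ± 2.69 to 6.95 ± 0.820 CPM (log2 fold change -1.06 ± 0.15, SE, edgeR adjusted p = 1.77e-05). JUN rose by 0.65 on the log2 scale (edgeR adjusted p = 2.325e-05), MYC by 0.64 (edgeR adjusted p = 1.017e-06) and FOXO3 by 0.62 (edgeR adjusted p = 1.134e-06). SNAI2, at 5.73 ± 1.19 CPM without DOX, rose by 0.48 (edgeR adjusted p = 0.0425), a call that DESeq2 and total-count scaling did not give. Leaving out DOX-negative replicate 2 or 3, or DOX-positive replicate 1 or 3, also ended the SNAI2 call, at values between 0.37 and 0.48.
The NF-Y subunits, named here for the CCAAT boxes after their values were seen, moved unevenly. NFYA fell from 64.4 ± 1.63 to 47.6 ± 2.73 CPM (edgeR adjusted p = 1.881e-04), NFYC rose from 38.5 ± 1.01 to 45.5 ± 1.83 CPM (edgeR adjusted p = 0.0281), and NFYB did not pass the test (edgeR adjusted p = 0.303). NR1I2, the xenobiotic receptor PXR that induces ABCB1 in liver and gut, had 0 counts in all 6 libraries, as did MYCN and TWIST1.

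Of 15 other genes of docetaxel transport and metabolism, 9 were tested, 1 rose and 2 fell, beside 26.7% of all genes tested that changed, and the median log2 fold change was 0.01. The efflux pump gene ABCG2 fell from 10.8 ± 0.144 to 6.66 ± 0.722 CPM (log2 fold change -0.69 ± 0.14, SE, edgeR adjusted p = 8.673e-04). ABCC1, another efflux pump, fell from 96.1 ± 3.49 to 75.0 ± 3.73 CPM (edgeR adjusted p = 5.942e-04). SLCO1B3, an uptake transporter of docetaxel, rose from 26.9 ± 0.784 to 38.6 ± 0.590 CPM (edgeR adjusted p = 8.543e-05). CYP3A4 and CYP3A5, the enzymes that inactivate docetaxel in liver, had at most 1 count in any library.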

How the data were processed

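The authors deposited a table of gene counts and a table of TPM values. STAR, DESeq2 and GRCh38 are named in the submitters' processing notes. The counting tool, its use of strand and the annotation are not given in the sources used here. Tests used edgeR 4.0.16 under R 4.3.3 (filterByExpr, TMM, glmQLFit and glmQLFTest, two-sided, group as the only term, Benjamini-Hochberg over 14292 genes). SE is the absolute log2 fold change over the square root of F. Scripts were tested on simulated data. Totals were 15092691 to 23243713 counts, and floors of 3 counts reflect counting error alone. Replicate libraries differed by more than sampling noise. Positions came from GENCODE 29, which placed 89.7% of symbols, and promoters from RefSeq GRCh38.p14. The members and lists were chosen with earlier results of these data known. Besides all members, MUC1 and TP53TG1, the named genes were the 6 with the largest change past the threshold in each list, the 3 most abundant flank genes and the 5 most like ABCB1 with an average log2 CPM of at least 1. Some listed genes are not reported here. Alternatives used DESeq2 1.42.0, limma 3.58.1 on TPM, other scalings and filters, a replicate block, and each library left out.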

Additional observations from a re-analysis of the deposited data

How the results depend on the processing

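The ABCB1 log2 fold change was 0.39 to 0.46 when each library was left out in turn, 0.42 with the replicate number as a block, and 0.38 with total counts. On log2(TPM + 1) and log2(TPM + 0.1) it was 0.02531 and 0.02541. Those scales shifted the median of all genes by -0.32 and -0.39, and 10.8% and 11.2% of calls were higher, against 48.8% in counts. On them the calls numbered 0 and 0 for the 10 genes, 0 and 0 for flanks, 0 and 2 for regulators, 0 and 0 for docetaxel handling, and 232 and 556 over all genes. TPM rescaled without the 5 short noncoding RNAs gave 0.39 for ABCB1 and 2573 calls. Of the 10 genes, CROT (-0.22 and -0.23), KIAA1324L (-0.24 and -0.27), DMTF1 (-0.36 and -0.37) and ABCB4 (-0.15 and -0.24) also changed sign on those scales. DMTF1 with total counts was at -0.01, and DMTF1 and ABCB4 also crossed 0 slightly when some single libraries were left out. Among other named genes, directions reversed on both TPM scales for TP53TG1 (-0.3202 and -0.3281), CLDN12 (-0.02433 and -0.02435) and ZNHIT6 (-0.01477 and -0.01287). With 1 library left out, TP53TG1 ranged from -0.02977 (without DOX-negative replicate 2) to 0.1373. Flanks of 2 Mb held 2 calls. Per kilobase of the longest transcript, ABCB1 was 16.4-fold above the next neighbour in place of 20.5-fold. Same-numbered libraries did not deviate together (correlations -0.0318 to -0.123), so the numbers give no pairing. The block gave 3158 calls over all genes, of which 3136 were among the 3816, and changed no call of the 10 genes. Without 1 library, calls over all genes were 2784 to 3645. Low counts limit ABCB4 and RUNDC3B.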

Other observations

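The second group of high levels on this arm was noticed only after the values were seen. In windows of 7 consecutive protein-coding genes along the genome, ranked by their median DOX-negative TPM, the window from MTERF1 to GATAD1 was at rank 11 of 18553, with a median of 132 TPM. The highest-ranked window that holds ABCB1 was at rank 1483, with a median of 22.7 TPM. In the MTERF1 to GATAD1 window, the levels were 70.6 ± 18.8 TPM for MTERF1, 36.6 ± 14.5 TPM for AKAP9, 970 ± 250 TPM for CYP51A1, 145 ± 33.7 TPM for KRIT1, 228 ± 70.2 TPM for ANKIB1 and 132 ± 39.2 TPM for GATAD1. LRRD1, which lies among them, was near 0 with 0.171 TPM. These genes did not move together with DOX. CYP51A1 and AKAP9 rose (log2 fold change 0.40 and 0.29, edgeR adjusted p = 6.962e-05 and 0.00828), MTERF1 fell by 0.30 (edgeR adjusted p = 0.00367), and KRIT1, ANKIB1 and GATAD1 did not pass edgeR's test, although ANKIB1 passed with DESeq2 (adjusted p = 0.0348). Copy number was not measured, and its part in these levels was not tested.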
